A study of Mus musculus with 12 samples.

Results

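The subject here is the protein-folding machinery of the endoplasmic reticulum (ER) and the unfolded protein response in the mouse pituitary, followed through 34 genes of the 55421 gene IDs in the count files. The members were set by a list of symbols, not by their values. They fall into 17 genes of protein entry and folding, 7 of ER-associated degradation, 4 for the stress sensors and Xbp1, and 6 for ATF4 and targets of the PERK-ATF4 arm. All 34 matched a gene ID and all 34 passed the low-count filter. Bulk RNA sequencing gave 12 libraries of C57BL/6 pituitary in 4 groups of 3. Every mouse carried floxed Gpr101 alleles, the genotypes being written Cga-ctrlAAVGpr101fl/fl and Cga-creAAVGpr101fl/fl. AAV is an adeno-associated virus, here with or without the Cre recombinase that cuts floxed alleles. Each genotype received control vehicle or AA14, a small-molecule ligand of the receptor GPR101, for 1 week. Below, ctrl_vehicle and ctrl_AA14 are the mice with the control virus, and cre_vehicle and cre_AA14 those with the cre virus, each followed by its replicate number. The sources used here do not give age, sex or what the Cga prefix stands for. Per the design text the glands were dispersed to single cells and taken to flow cytometry, and the text names no gate.

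Proteins bound for secretion are threaded into the ER through the Sec61 channel, folded there by chaperones and disulfide isomerases, and sent back to the cytosol for degradation if they fail to fold. When unfolded protein builds up, the sensors IRE1 (gene Ern1), PERK (gene Eif2ak3) and ATF6 signal to the nucleus through spliced Xbp1, through ATF4 and through cleaved ATF6, and these factors raise the chaperone and degradation genes. Pituitary endocrine cells are professional secretors that make large amounts of peptide hormone, so this machinery carries a heavy load in them. Gene counts show neither Xbp1 splicing nor the phosphorylation or cleavage of a sensor.

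Promoter sequence is shown first because the ER stress response element (ERSE) and its shorter form ERSE-II are the letters that ATF6 and XBP1 are known to bind, and because the members divide into those with and without them. RefSeq windows of GRCm38.p6, from 250 bases before to 50 after a gene's start, matched 29 of the 34 members. They were searched on both strands for ERSE (CCAAT, 9 bases of any kind, CCACG), ERSE-II (ATTGG, 1 base of any kind, CCACG), a core of the XBP1-bound element (TGACGTGG) and an ATF4 composite element (TGATGNAA). The core TGACGTGG shares CGTGG with the reverse strand of the CCACG in ERSE and ERSE-II. ERSE was found in 9 of 29 members, or 31.0%, against 0.137% of all 27025 genes with a window. ERSE-II was found in Dnajb11 and Herpud1, 6.90% of members against 0.0444% of genes. The list was made of genes of this response, so these shares describe the list and test nothing. The ATF4 element was found in Asns, Chac1, Herpud1 and Trib3, 13.8% of members against 4.51% of genes, and TGACGTGG in 0 members against 0.714% of genes. The ERSE and ERSE-II matches are written below in the direction of the motif, with its fixed letters in capitals. A match is a run of letters, not a shown binding site.
Hspa5 ERSE: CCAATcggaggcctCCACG
Hsp90b1 ERSE, distal: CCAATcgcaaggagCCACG
Hsp90b1 ERSE, proximal: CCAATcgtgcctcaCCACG
Calr ERSE: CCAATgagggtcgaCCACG
Canx ERSE: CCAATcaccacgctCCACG
Pdia6 ERSE: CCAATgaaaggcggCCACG
Dnajc3 ERSE: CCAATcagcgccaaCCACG
Creld2 ERSE: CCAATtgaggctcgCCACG
Derl3 ERSE: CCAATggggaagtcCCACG
Syvn1 ERSE: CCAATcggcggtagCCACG
Herpud1 ERSE-II: ATTGGgCCACG
Dnajb11 ERSE-II: ATTGGcCCACG

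A pair of stretches shows where these letters sit, each covering the 150 bases before the RefSeq start, on the plus strand. Hspa5 (chr2:34771940-34772089), which encodes BiP, the main ER chaperone, has its ERSE from 65 bases before the start. The GENCODE model of Hspa5, whose coordinates are given below, starts earlier, at 34771970. Most of the stretch, with its ERSE, lies inside that model. Herpud1 (chr8:94386279-94386428), which encodes a membrane protein that organises ER-associated degradation, has ERSE-II from 52 bases before the start. It also has the ATF4 element from 112 bases before the start, read on the opposite strand. Capitals mark the fixed letters of each match.
Hspa5 promoter: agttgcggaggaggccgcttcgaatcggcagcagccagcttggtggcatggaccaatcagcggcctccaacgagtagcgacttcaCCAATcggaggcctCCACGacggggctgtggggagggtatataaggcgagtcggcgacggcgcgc
Herpud1 promoter: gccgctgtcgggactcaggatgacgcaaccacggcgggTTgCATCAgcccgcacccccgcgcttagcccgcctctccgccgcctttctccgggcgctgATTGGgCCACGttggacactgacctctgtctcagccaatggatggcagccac

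The libraries differed before any member is considered. Totals ran from 48693682 to 73388221 counts, and Gpr101, the floxed gene, was at 0.901 to 4.29 CPM in cre libraries and 1.22 to 16.1 CPM in control libraries. CPM are counts scaled to a common library size by the effective (TMM) total. The pituitary factors Pou1f1, Pitx1, Lhx3 and Tbx19 were present in every library at 54.3 CPM or more. In 5 libraries (all 3 of ctrl_AA14, cre_vehicle 1 and cre_AA14 2) Malat1, a nuclear noncoding RNA, stood at 1095 to 1544 CPM, against 202 to 549.5 CPM in the other 7. In the same 5 libraries, levels relative to the other libraries fell with transcript GC content across genes (rho -0.41 to -0.21, against 0.02 to 0.36). These are called Malat1-rich below, and in control mice they cannot be told apart from AA14. Oligodendrocyte markers summed to 2522 CPM in ctrl_vehicle 3, 782 in ctrl_AA14 1 and 3392 in cre_vehicle 2, against 80.1 to 474 elsewhere. Heat shock and immediate early transcripts summed to 6508 CPM in cre_AA14 1, against 1165 to 2790 elsewhere.

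Summed, the 34 members held 0.600% to 0.888% of the counts of a library. Per length of exon sequence, the disulfide isomerase Pdia3 had the highest mean level at 301 CPM per kb, followed by the lectin chaperone calreticulin (Calr, 232), the chaperone Hsp90b1 (225), Hspa5 (186) and the isomerase P4hb (182). In the degradation branch Herpud1 (56.4 CPM per kb) and Derl1 (48.0), a channel protein for retrotranslocation, stood above the other 5, which lay between 2.38 and 10.96. Xbp1 was at 53.8 CPM per kb, while the sensors Ern1, Atf6 and Eif2ak3 were at 9.51, 7.13 and 6.80. In the last branch Atf4 was at 73.6 CPM per kb and the pseudokinase gene Trib3 at 2.92. Exons of 12 members overlap those of another gene, by up to 632 bases for Hsp90b1, so that part of their counts is uncertain.

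**Figure D1:**
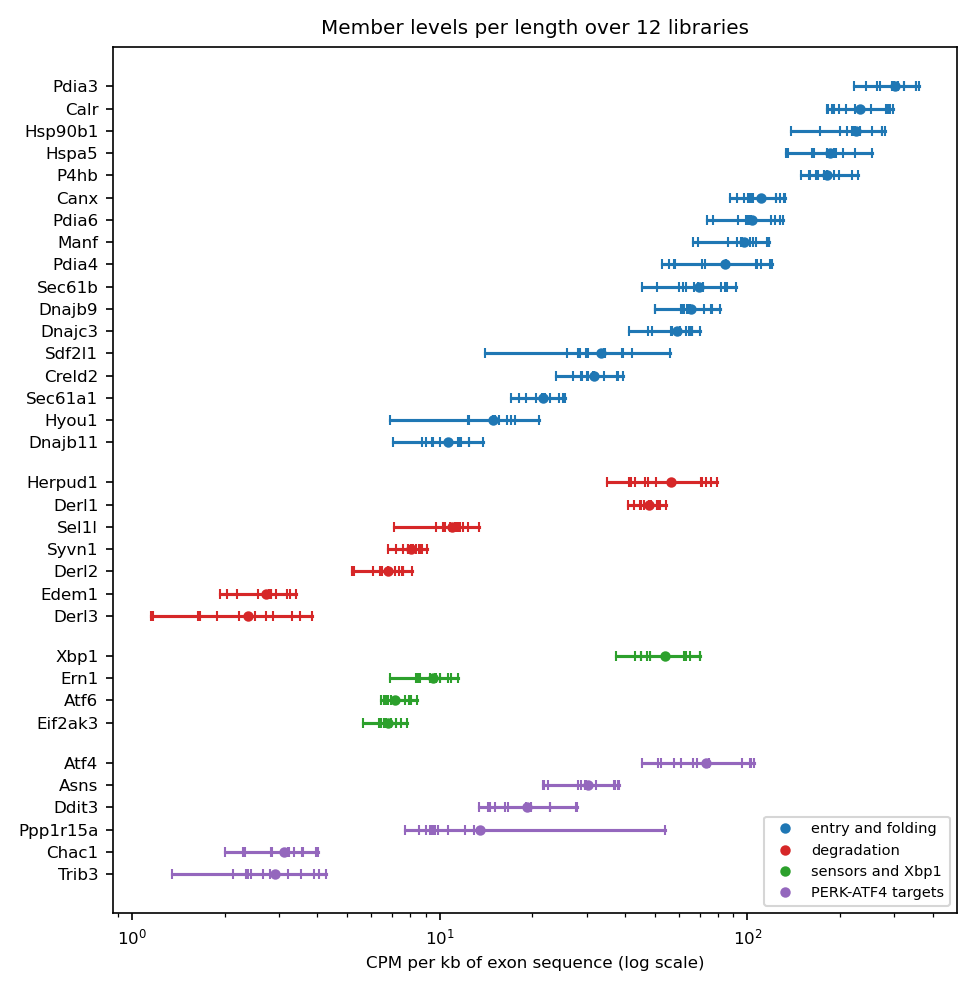
Level of each member per kb of exon sequence (log scale, CPM per kb); ticks are the 12 libraries, the line spans their range and the dot is the mean. Pdia3 leads at 301 CPM per kb, the 3 sensors lie between 6.80 and 9.51, and Ppp1r15a has 1 library far to the right of the rest.

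The first comparison is AA14 against vehicle in mice with the control virus. Most folding genes, Herpud1, Xbp1, Atf4 and Ddit3 had higher levels after AA14, the 3 sensor genes had values near 0, and Dnajb11, Hyou1, Sdf2l1 and Chac1 had lower ones, none past the threshold of the primary test. In edgeR's quasi-likelihood test 0 of 34 members passed an adjusted p of 0.05, and 0.00442% of all 22630 genes did (1 gene). At an unadjusted p under 0.05 there were 14 members, 11 with higher and 3 with lower levels after AA14, where 8.03% of all genes were higher and 15.8% lower. In either direction that is 14 of 34 members beside 23.8% of genes. DESeq2 called 4 of 33 members, all higher, beside 3.1% of its genes higher and 13.4% in either direction. Limma-voom called 9 higher and 1 lower, beside 5.1% and 9.97% of genes and 15.1% in either direction. An edgeR fit of the ctrl_vehicle and ctrl_AA14 libraries alone called 5, all higher, beside 3.04% of genes higher and 10.6% in either direction. The median log2 fold change of the members was 0.30, with 21 of 34 positive, beside -0.02 for all genes tested. It was 0.18 without ctrl_vehicle 3, 0.15 without the 3 libraries rich in oligodendrocyte markers, and 0.02 with the Malat1 state as a term. In control mice that state coincides with AA14, so the term was fitted from the cre groups alone. Rich libraries there were cre_vehicle 1 and cre_AA14 2, so 0.02 does not separate AA14 from the Malat1 state. In a bulk library, fewer cells of a type and less RNA per cell cannot be told apart.

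In the entry and folding branch 13 of 17 members had a positive log2 fold change after AA14 in control mice, with a median of 0.35, and 4 had a negative one. Hspa5 (chromosome 2, 34771970 to 34777547) was at 685, 817 and 575 CPM in ctrl_vehicle, 812, 1077 and 866 in ctrl_AA14, 948, 566 and 697.5 in cre_vehicle, and 807, 766 and 821 in cre_AA14. The control groups overlapped by 1 library, ctrl_vehicle 2, and ctrl_AA14 2 was the highest of all. The log2 fold change in control mice was 0.41 (SE 0.20, edgeR adjusted p = 0.231). Hsp90b1, the ER form of HSP90, was at 893, 849 and 559.9 CPM in ctrl_vehicle, 1106, 1126 and 934 in ctrl_AA14, 1027, 693 and 808 in cre_vehicle, and 899, 1106 and 885 in cre_AA14. Its 2 control groups did not overlap, and ctrl_vehicle 3 was the lowest library. The log2 fold change was 0.46 (SE 0.20, edgeR adjusted p = 0.196), and 0.28 without ctrl_vehicle 3.

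The disulfide isomerases Pdia4 and Pdia3, which form and rearrange disulfide bonds, had control groups further apart. Pdia4 (chromosome 6, 47796141 to 47813430) was at 127, 174 and 139 CPM in ctrl_vehicle, 284, 289.5 and 257 in ctrl_AA14, 258, 139 and 170.5 in cre_vehicle, and 133, 265 and 205 in cre_AA14. All 3 ctrl_AA14 libraries, cre_vehicle 1 and cre_AA14 2 were above 256 CPM and the other 7 at 205 CPM or below. The log2 fold change in control mice was 0.91 (SE 0.27, edgeR adjusted p = 0.141; DESeq2 0.0257; limma-voom 0.0171). Pdia3 was at 826, 848 and 698 CPM in ctrl_vehicle, 1106, 1111 and 1011 in ctrl_AA14, 1013, 760.4 and 926.5 in cre_vehicle, and 969.5, 1131 and 940.1 in cre_AA14. Its log2 fold change was 0.44 (SE 0.14, edgeR adjusted p = 0.141; DESeq2 0.0329). Dnajc3, a co-chaperone of BiP that also inhibits PERK, was at 292, 310.1 and 212 CPM in ctrl_vehicle, 340.2, 361 and 333 in ctrl_AA14, 326, 251 and 289.5 in cre_vehicle, and 245, 339 and 338 in cre_AA14. The control groups did not overlap, and the log2 fold change was 0.35 (SE 0.18, edgeR adjusted p = 0.255).

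Some partners of BiP had lower values after AA14. Dnajb11, a co-chaperone that hands unfolded clients to BiP, was at 37.2, 38.1 and 40.4 CPM in ctrl_vehicle, 28.3, 29.15 and 22.75 in ctrl_AA14, 30.65, 37.6 and 40.15 in cre_vehicle, and 44.7, 30.8 and 32.5 in cre_AA14. All ctrl_AA14 libraries lay below all ctrl_vehicle libraries, with a log2 fold change of -0.53 (SE 0.18, edgeR adjusted p = 0.141; limma-voom 0.0350). Hyou1, a nucleotide exchange factor for BiP, and Sdf2l1, which forms a complex with Dnajb11, were named after their values were seen. Their log2 fold changes were -0.58 (SE 0.22) and -0.68 (SE 0.32), both with control groups that did not overlap, and ctrl_AA14 3 was the lowest library of both genes at 50.02 and 15.6 CPM. The remaining 9 members of this branch had log2 fold changes between -0.15 (P4hb) and 0.53 (Calr).

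In the degradation branch 4 of 7 members had a positive value in control mice, with a median of 0.07. Herpud1 (chromosome 8, 94386438 to 94395377) was at 81.8, 111 and 101 CPM in ctrl_vehicle, 171, 185.5 and 166 in ctrl_AA14, 178, 97.8 and 118 in cre_vehicle, and 96.2, 165 and 108 in cre_AA14. As for Pdia4, the 5 high libraries were the 3 of ctrl_AA14, cre_vehicle 1 and cre_AA14 2. The log2 fold change in control mice was 0.83 (SE 0.25, edgeR adjusted p = 0.141; DESeq2 0.0291; limma-voom 0.0171). Derl3, a derlin of secretory cells with few counts here, was at 4.43, 3.32 and 2.33 CPM in ctrl_vehicle, 6.59, 6.995 and 5.74 in ctrl_AA14, 7.68, 2.30 and 3.75 in cre_vehicle, and 5.01, 5.42 and 3.265 in cre_AA14. The control groups did not overlap, with a log2 fold change of 0.94 (SE 0.41, edgeR adjusted p = 0.197). Edem1, which draws misfolded glycoproteins into degradation, was at 18.15, 22.0 and 16.6 CPM in ctrl_vehicle, 14.2, 17.9 and 12.5 in ctrl_AA14, 20.5, 18.3 and 18.9 in cre_vehicle, and 21.1, 13.1 and 18.2 in cre_AA14. Its control groups overlapped and its log2 fold change was -0.35 (SE 0.21, edgeR adjusted p = 0.323). Sel1l and Syvn1, the adaptor and the ubiquitin ligase at the core of the pathway, and the derlins Derl1 and Derl2 had log2 fold changes between -0.14 and 0.13.

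The 3 sensor genes overlapped between vehicle and AA14 in both genotypes. Ern1 was at 56.2, 93.5 and 69.7 CPM in ctrl_vehicle, 70.35, 78.9 and 68.4 in ctrl_AA14, 81.8, 79.7 and 87.05 in cre_vehicle, and 88.65, 76.0 and 82.0 in cre_AA14. Eif2ak3 was at 39.7, 44.95 and 38.7 CPM in ctrl_vehicle, 38.4, 43.5 and 39.7 in ctrl_AA14, 43.6, 40.3 and 47.2 in cre_vehicle, and 34.1, 39.9 and 42.0 in cre_AA14. Atf6 was at 61.3, 73.4 and 61.0 CPM in ctrl_vehicle, 62.5, 61.6 and 60.8 in ctrl_AA14, 62.4, 59.6 and 77.65 in cre_vehicle, and 74.5, 64.2 and 71.35 in cre_AA14. For each sensor the control groups overlapped, and the log2 fold changes were -0.01 (SE 0.17), -0.02 (SE 0.13) and -0.08 (SE 0.14), with edgeR adjusted p of 0.94 or more for Ern1 and Eif2ak3 and 0.748 for Atf6. These 3 values changed sign under some settings. Xbp1 (chromosome 11, 5520659 to 5525893), the transcription factor gene whose RNA is the substrate of IRE1, was at 146.5, 154 and 122 CPM in ctrl_vehicle, 211, 206 and 202 in ctrl_AA14, 227, 139.9 and 157 in cre_vehicle, and 157, 228.5 and 147 in cre_AA14. The 5 libraries above 202 CPM were again the Malat1-rich ones. Its log2 fold change in control mice was 0.55 (SE 0.21, edgeR adjusted p = 0.161; limma-voom 0.0292), and -0.05 with the Malat1 state as a term.

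The PERK-ATF4 branch was divided, with 3 of 6 members positive. Atf4, the factor whose translation PERK signalling favours, was at 123, 136 and 107 CPM in ctrl_vehicle, 241, 226 and 161.5 in ctrl_AA14, 241, 144 and 121 in cre_vehicle, and 247, 178 and 156 in cre_AA14. The control groups did not overlap, and the highest library was cre_AA14 1, which was not Malat1-rich. The log2 fold change in control mice was 0.78 (SE 0.27, edgeR adjusted p = 0.143; DESeq2 0.0490). Ddit3, which encodes the stress factor CHOP, was at 24.65, 24.95 and 25.95 CPM in ctrl_vehicle, 39.2, 47.4 and 32.65 in ctrl_AA14, 47.7, 22.9 and 27.95 in cre_vehicle, and 28.5, 39.1 and 33.8 in cre_AA14. Its log2 fold change was 0.66 (SE 0.25, edgeR adjusted p = 0.161), and its exons overlap those of Mars and of a second gene model that carries the same symbol. Chac1, a glutathione-degrading enzyme and a target of the arm, was at 5.86, 5.48 and 6.49 CPM in ctrl_vehicle, 3.81, 4.68 and 3.275 in ctrl_AA14, 5.30, 5.26 and 5.905 in cre_vehicle, and 6.598, 4.62 and 3.75 in cre_AA14. All ctrl_AA14 values lay below all ctrl_vehicle values, with a log2 fold change of -0.60 (SE 0.25, edgeR adjusted p = 0.181). Asparagine synthetase (Asns), Trib3 and Ppp1r15a had log2 fold changes of 0.41, -0.08 and -0.23 (SE 0.23, 0.38 and 0.56).

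Over all branches, 19 members had control groups that did not overlap, 15 higher and 4 lower after AA14, where 17.6% of all genes were higher without overlap and 20.1% lower (37.7% in either direction). For AA14 in control mice the Malat1 term was fitted from the cre groups alone, so the values with it do not separate AA14 from that state. With the Malat1 state as a term, the log2 fold changes in control mice came to 0.22 for Pdia4, 0.19 for Pdia3, 0.15 for Hspa5, 0.10 for Dnajc3, 0.08 for Hsp90b1 and -0.19 for Dnajb11. They came to 0.125 for Herpud1, 0.05 for Derl3, -0.14 for Edem1, 0.03 for Ddit3 and 0.405 for Atf4, while Chac1 stood at -0.48. With GC-corrected offsets the median of the members was 0.33, against 0.301 in the main fit, and single members moved both ways. Chac1 came to -0.16, Hsp90b1 to 0.30 and Dnajc3 to 0.22, smaller in size than in the main fit. Herpud1 came to 1.07, Derl3 to 1.33, Xbp1 to 0.77 and Atf4 to 1.095, larger than in the main fit. Single libraries moved some of these values by more than 1.5 times. Dnajc3 was at 0.20 without ctrl_vehicle 3 and Hspa5 at 0.26 without ctrl_AA14 2, and Edem1 was at -0.22 without ctrl_vehicle 2 and -0.23 without ctrl_AA14 3.

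**Figure D2:**
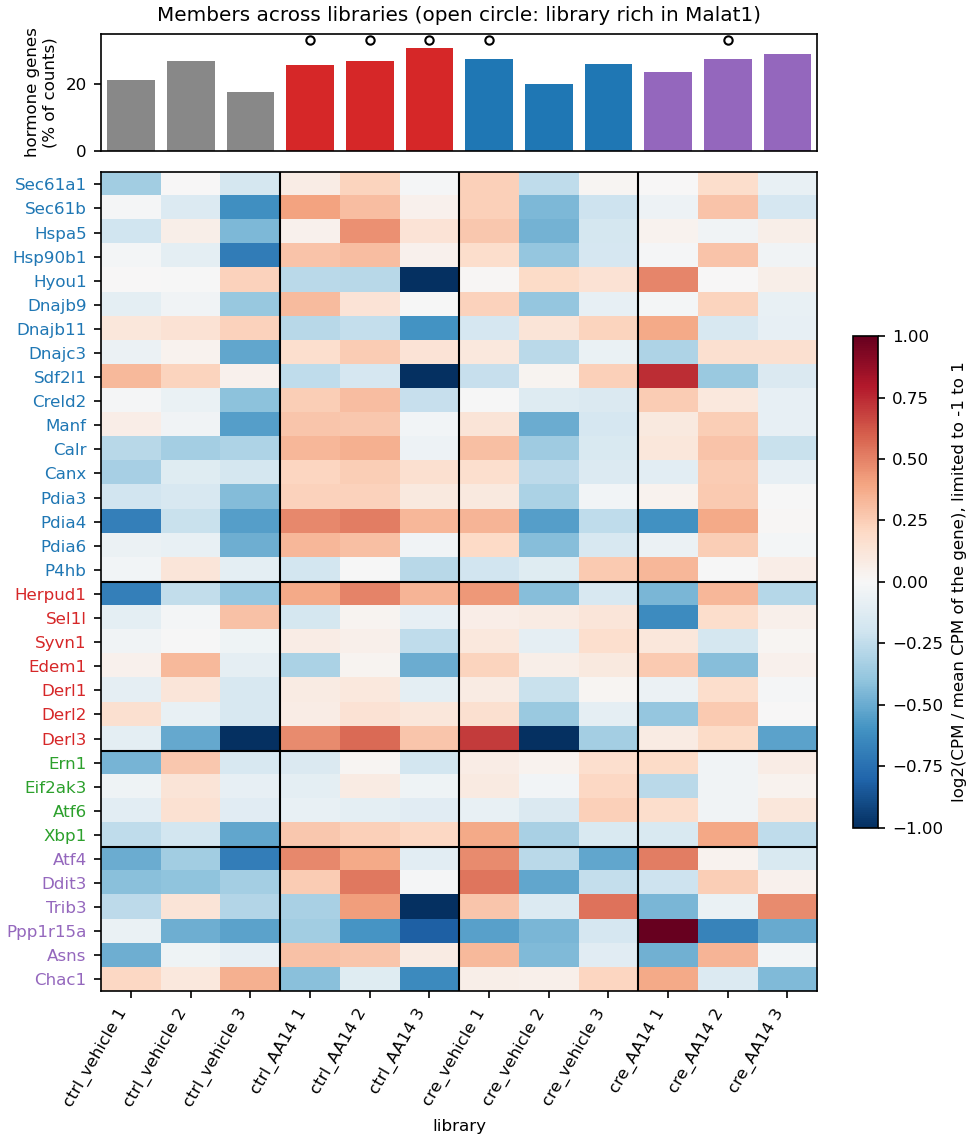
Lower panel, log2 of each member's CPM over its mean in 12 libraries (colour, limited to -1 to 1), with gene names coloured by branch and vertical lines between groups; upper panel, percent of counts in 7 hormone genes, with open circles on the 5 Malat1-rich libraries. Herpud1, Pdia3, Pdia4, Hsp90b1 and Canx are above their means in all 5 circled libraries, and Dnajb11 and Sdf2l1 are below theirs. Other folding genes are less even, with Calr, Manf and Pdia6 below their means in ctrl_AA14 3.

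In mice with the cre virus no member separated vehicle from AA14. In edgeR 0 of 34 members passed the threshold and 0 had an unadjusted p under 0.05, beside 0% and 2.29% of all genes, and DESeq2 and limma-voom called 0 members too (0.0627% and 0% of genes). No member had groups that did not overlap, beside 5.86% of all genes. The median log2 fold change was 0.08, with 24 of 34 positive, and it was -0.03 without the 3 libraries rich in oligodendrocyte markers and -0.02 without cre_vehicle 2, while without cre_vehicle 1 it was 0.21 with 26 of 34 positive. Without cre_AA14 2 it was 0.001. Pdia4 had 0.09 (SE 0.27), Herpud1 -0.09 (SE 0.25), Xbp1 0.02 (SE 0.21) and Hspa5 0.11 (SE 0.20). The value farthest from 0 was that of Ppp1r15a, the phosphatase subunit that reverses the PERK signal, which was named after its values were seen. Its log2 fold change of 1.21 (SE 0.57, edgeR adjusted p = 1) rested on cre_AA14 1 with 158.5 CPM, against 22.6 to 38.1 CPM in the other 11 libraries. That library also held the highest sum of heat shock and immediate early transcripts, and the part of that in the Ppp1r15a value was not tested.

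The difference between the AA14 effects, cre minus control, was tested directly, and 0 members passed in edgeR, beside 0.00442% of all genes. DESeq2 and limma-voom called 0 members, beside 0.116% and 0% of genes. Herpud1 alone had an unadjusted p under 0.05, beside 7.03% of all genes in either direction and 2.17% with a lower value, with a difference of -0.92 on the log2 scale (SE 0.35, edgeR adjusted p = 0.631). Pdia4 had -0.82 (SE 0.38), Derl3 -0.94 (SE 0.58), Atf4 -0.58 (SE 0.38) and Xbp1 -0.53 (SE 0.30). Leaving out cre_vehicle 1 brought Herpud1 to -0.64 and Pdia4 to -0.53, Derl3 to -0.34, Atf4 to -0.23 and Xbp1 to -0.29. With the Malat1 state as a term the difference was -0.21 for Herpud1 and -0.12 for Pdia4, and those of Xbp1 and Derl3 became positive, 0.08 and 0.09. Here too the term was fitted from the cre groups alone, so these values do not separate AA14 from the Malat1 state.

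**Figure D3:**
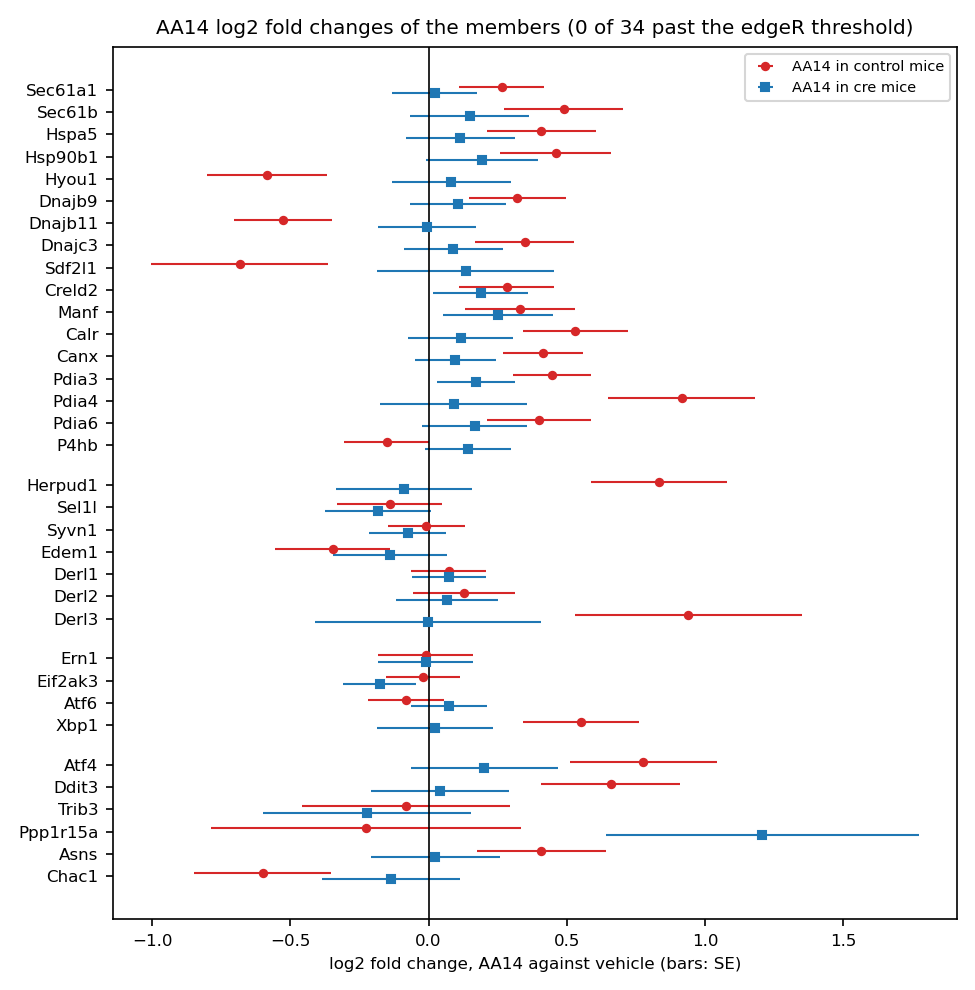
log2 fold change of each member, AA14 against vehicle, in control mice (circles) and cre mice (squares), with bars of 1 SE from the fit over 12 libraries. Circles reach 0.94 for Derl3 and -0.68 for Sdf2l1, squares stay between -0.22 and 0.25 except Ppp1r15a at 1.21, and no member passed the edgeR threshold in either genotype.

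The cre virus was compared with the control virus under each treatment. Under vehicle 0 members passed in edgeR (0.00442% of all genes), DESeq2 (0.0851%), limma-voom (0.00884%) and an edgeR fit of those groups alone (0.00478%). Of the members 0 had an unadjusted p under 0.05 (2.00% of genes), and 0 had groups that did not overlap (4.92%). The median log2 difference was 0.09, from -0.18 for Sdf2l1 to 0.46 for Atf4, and it was 0.02 among the 7 libraries poor in Malat1. The median was 0.215 without cre_vehicle 2 (30 of 34 positive), 0.17 without ctrl_vehicle 2, 0.03 without ctrl_vehicle 3 and 0.02 without cre_vehicle 1. Under AA14 0 members passed in edgeR (0% of genes), DESeq2 (0.152%), limma-voom (0%) and an edgeR fit of those groups alone (0.00472%). Hyou1 (log2 0.70, SE 0.22), Dnajb11 (0.43, SE 0.18) and Ppp1r15a (1.40, SE 0.57) were higher in cre mice at an unadjusted p under 0.05, beside 7.08% of all genes higher and 8.52% in either direction, with edgeR adjusted p = 0.582 for each. Groups did not overlap for 5 members (14.1% of genes). Hyou1, Dnajb11 and Atf6 were higher in cre_AA14 (7.3% of genes), Herpud1 and Derl3 lower (6.76%). By both rules the members in either direction lay near the share of all genes. Every ctrl_AA14 library was Malat1-rich, and of cre_AA14 only cre_AA14 2 was. The median log2 difference under AA14 was -0.09 with 12 of 34 positive. With the Malat1 state as a term, fitted from the cre groups alone, it was 0.12 with 28 of 34 positive. All 5 comparisons share libraries, so their values are not independent.

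Several members also differed between Malat1-rich and other libraries across the groups. All 5 Malat1-rich libraries lay above all 7 others for 10 members, and below them for 2, beside 9.23% and 13.1% of all genes (22.4% together). The 10 were Pdia3, Pdia4, Hsp90b1, the lectin chaperone Canx, the BiP co-chaperone Dnajb9, the channel subunit Sec61b, Herpud1, Derl3, Xbp1 and Asns, and the 2 were Dnajb11 and Sdf2l1. Herpud1 was at 165 to 185.5 CPM in the rich libraries and 81.8 to 118 in the others, and Pdia4 at 257 to 289.5 and 127 to 205. Xbp1 was at 202 to 228.5 CPM and 122 to 157, Canx at 581 to 619.9 and 413 to 489.8. For Sdf2l1 the ranges were 15.6 to 33.1 and 33.5 to 62.0 CPM, so its groups nearly touched. The split was made from Malat1 after earlier results were known and has no test here.

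Plasma cells also express Xbp1, Derl3 and Herpud1 strongly, and the sum of 10 plasma and B cell markers was 23.5 to 99.75 CPM in the rich libraries against 14.65 to 24.9 in the others, with Tnfrsf17 at 0 in 10 libraries and at most 0.0572 CPM. Of these 10 markers Igkc and Igha were higher in all rich libraries. In ctrl_AA14 3 Igha was at 0.957 CPM, Igkc at 2.75 and Jchain at 0.778, against at most 0.561, 1.78 and 0.811 CPM in the Malat1-poor libraries. In that library Xbp1 was at 202 CPM, Herpud1 at 166 and Derl3 at 5.74. In cre_vehicle 1, with the highest Igha (32.3 CPM), Derl3 was highest too (7.68), with Xbp1 at 227 and Herpud1 at 178. In cre_AA14 2 Igha was at 10.1 CPM and Derl3 at 5.42, the lowest Derl3 of the rich libraries, with Xbp1 at 228.5. The part of plasma cell RNA in these values was not tested.

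Other markers moved with the same split. Of 8 posterior lobe markers 3 (Avp, Oxt and Nkx2-1) were lower in all rich libraries, and the list summed to 96.3 to 131 CPM in them and 157 to 1052 in the others. In control mice those sums were 108 to 131 CPM after AA14 and 157 to 1052 after vehicle. Of 6 fibroblast markers 2 (Col1a1 and Col1a2) were lower in all rich libraries, with sums of 335.5 to 429 CPM against 409.9 to 572. Of 8 pituitary markers Pou1f1 and Ghrhr, the receptor gene of the growth hormone axis, were higher in all rich libraries, Ghrhr at 241 to 316 CPM against 84.0 to 159.7, and Pitx1 was lower. Their part in the values of the folding genes was not tested.

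**Figure D4:**
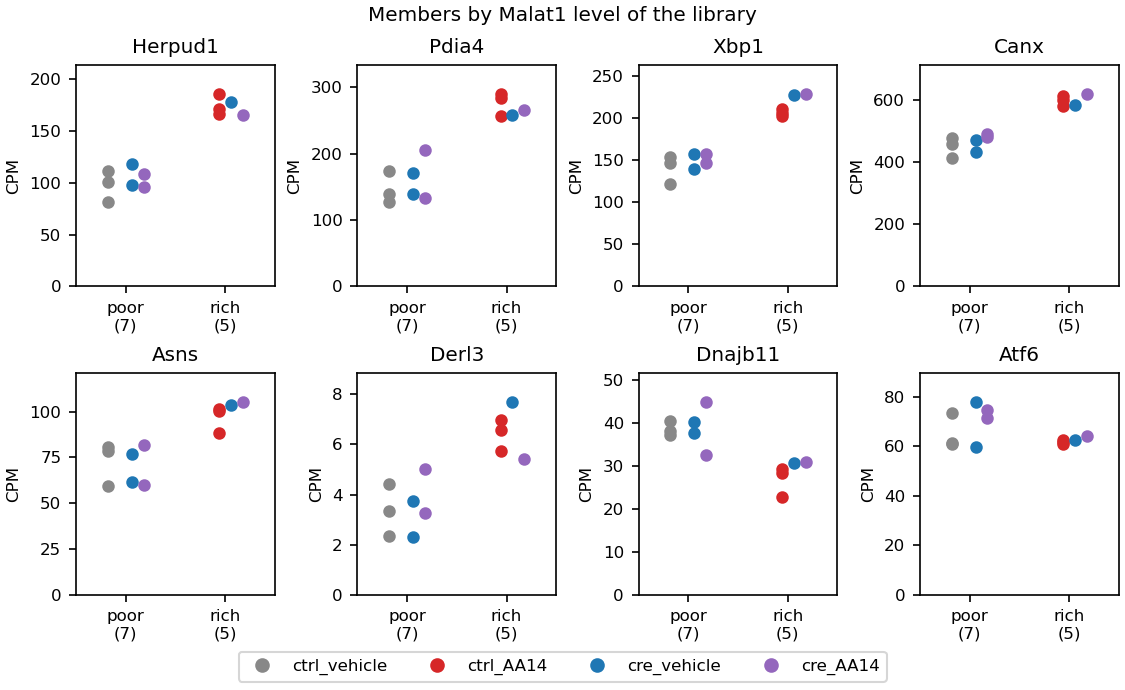
CPM of 8 members in the 7 Malat1-poor and 5 Malat1-rich libraries, 1 dot per library coloured by group. Herpud1, Pdia4, Xbp1, Canx, Asns and Derl3 are higher in all rich libraries, Dnajb11 lower, and Atf6 overlaps, with rich values of 60.8 to 64.2 CPM inside the range of the others.

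Hormone load was taken as the percent of a library's counts in 7 hormone genes (Gh, Prl, Pomc, Cga, Lhb, Fshb and Tshb), and the members were compared with it across libraries. The share ran from 17.6% in ctrl_vehicle 3 to 30.8% in ctrl_AA14 3. In edgeR 6 members rose with it, 5 of the folding branch and Xbp1, and 0 fell, where 18.6% of all 22747 genes were called, 7.3% higher and 11.2% lower. At an unadjusted p under 0.05 there were 17 members with positive and 2 with negative slopes, beside 16.2% and 19.2% of genes (35.4% together). DESeq2 called 13 members, all higher, and limma-voom 17 higher and 1 lower (Dnajb11), beside 27.9% and 33.9% of genes. Per doubling of the hormone share, Dnajc3 rose by 0.87 on the log2 scale (SE 0.20, edgeR adjusted p = 0.0108), Hspa5 by 0.93 (SE 0.24, adjusted p = 0.0191) and Pdia4 by 1.48 (SE 0.39, adjusted p = 0.0210). Pdia3 rose by 0.77 (SE 0.21, edgeR adjusted p = 0.0247), Hsp90b1 by 0.95 (SE 0.28, adjusted p = 0.0306) and Xbp1 by 0.97 (SE 0.30, adjusted p = 0.0392). The 3 libraries of lowest hormone share (ctrl_vehicle 3, cre_vehicle 2 and ctrl_vehicle 1) were also the 3 lowest for Hspa5, at 575, 566 and 685 CPM.

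The slopes of the other members spread widely. Over all 34 the median slope was 0.58 and 27 were positive, beside 0.07 for all genes tested. By branch the median was 0.68 for entry and folding (14 of 17 positive), 0.37 for degradation (5 of 7), 0.24 for the sensors and Xbp1 (4 of 4) and 0.64 for the PERK-ATF4 branch (4 of 6). Herpud1 had a slope of 1.19 (SE 0.40, edgeR adjusted p = 0.0518), Derl3 1.64 (SE 0.62, adjusted p = 0.0801), Ddit3 1.00 (SE 0.38, adjusted p = 0.0814) and Atf4 0.87 (SE 0.50, adjusted p = 0.231). Dnajb11 had -0.72 (SE 0.28, edgeR adjusted p = 0.0838) and Chac1 -0.88 (SE 0.36, adjusted p = 0.0994). The 3 sensor genes lay between 0.19 and 0.27. The 9 members with an ERSE in their window had slopes of 0.01 to 1.64 with a median of 0.80. The 20 members with a window and no ERSE had -1.23 to 1.48 with a median of 0.50, given as a description. Those 20 include Herpud1 and Dnajb11, which have ERSE-II.

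The calls for hormone load rested on 2 libraries. Without ctrl_vehicle 3 there were 0 members called, and 2 genes in all, with a median slope of 0.55, and without cre_vehicle 2 only Dnajc3 was called, among 2246 genes. Without cre_AA14 3 there were 13 members, among 5827 genes. The libraries ctrl_vehicle 3 and cre_vehicle 2 have the lowest hormone shares, 17.6% and 20.0%, and the most oligodendrocyte marker transcripts. Without both, 0 members were called and the median slope was 0.29. With 1 mean per group as a covariate 0 members and 33 genes were called, with a median slope of 0.42. With the Malat1 state as a term 0 members were called while 1499 of 22747 genes were, with a median slope of 0.29. With the share of Gh alone 10 members had higher and 3 lower calls (Dnajb11, Ppp1r15a and Sdf2l1 lower), among 5124 genes, and the median slope was 0.30. The Gh share was 19.10% to 23.31% in the Malat1-rich libraries and 9.617% to 19.09% in the others, so this fit is not separate from that split. Of the 7 hormone genes Cga, Fshb and Tshb were also higher in all rich libraries. Among the 7 Malat1-poor libraries 0 members were called, 30 of 34 slopes were positive and the median was 0.40. Among the 5 rich libraries, whose shares spanned only 25.7% to 30.8%, 2 of 34 slopes were positive and the median was -0.96, with 0 called.

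Set against the hormone transcripts themselves, the members held 2.34 to 3.41 counts per 100 hormone counts. The lowest ratios were in cre_AA14 3 (2.34) and ctrl_AA14 3 (2.35), the 2 libraries of highest hormone share, and the highest in ctrl_vehicle 3 (3.41), the library of lowest share. In ctrl_vehicle the ratio was 3.35, 2.61 and 3.41, and in ctrl_AA14 3.33, 3.29 and 2.35, so the groups overlapped. A ratio to hormone counts carries the hormone share in its divisor.

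**Figure D5:**
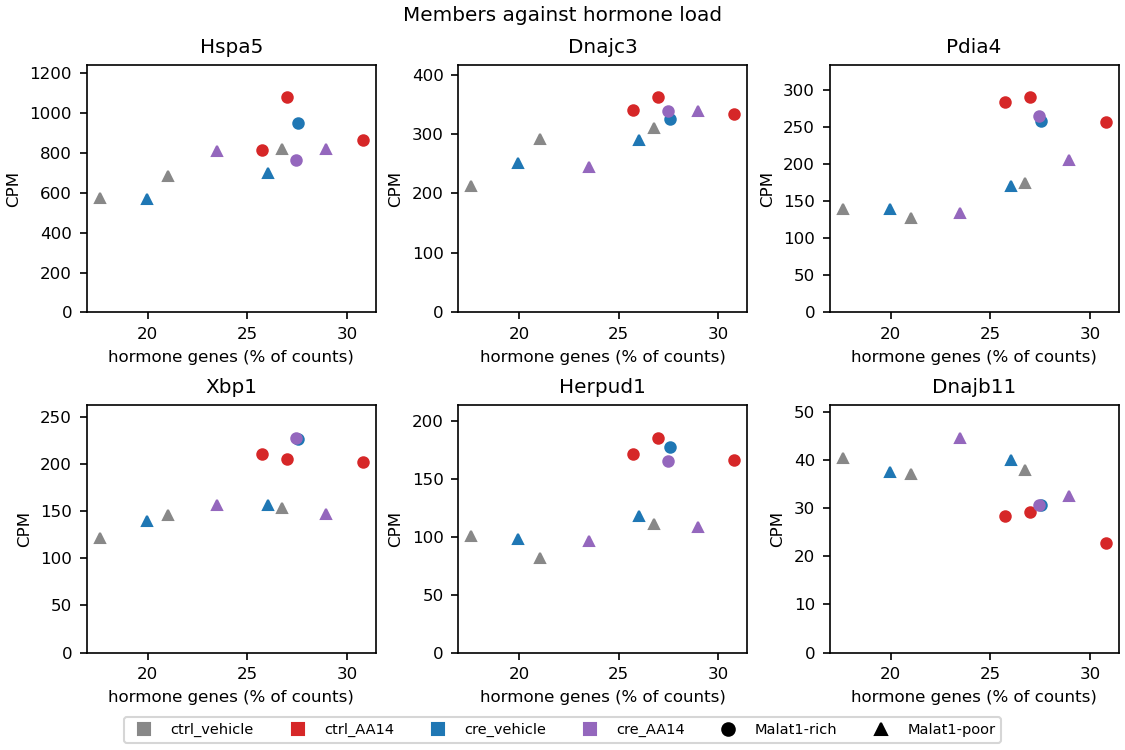
CPM of 6 members against the percent of counts in hormone genes, 1 symbol per library coloured by group, circles for Malat1-rich and triangles for Malat1-poor libraries. Hspa5 and Dnajc3 mostly climb along the triangles, while Pdia4, Xbp1 and Herpud1 step up at the circles, and Dnajb11 is lower at them.

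The rest of the pathway was followed through 89 listed genes, all tested. After AA14 in control mice 0 of them passed in edgeR. Of the translocation and glycosylation genes 16 of 20 had positive values, with a median log2 fold change of 0.26, and of other folding genes 12 of 18, with a median of 0.10. Of other degradation genes 1 of 15 was positive, with a median of -0.33, of transducers 4 of 12 (-0.18) and of other ATF4 targets 6 of 24 (-0.49). Rpn2, a subunit of the oligosaccharyltransferase, was at 222.5 ± 14.2 CPM in ctrl_vehicle and 336.5 ± 26.3 in ctrl_AA14 (SD, n = 3 each), a log2 fold change of 0.60 (SE 0.18, edgeR adjusted p = 0.141). Fkbp11, a prolyl isomerase of secretory cells, had 0.67 (SE 0.22) and Mthfd2, a mitochondrial folate enzyme, 0.84 (SE 0.30). The phosphatase subunit gene Ppp1r15b was at 55.4 ± 5.83 and 36.3 ± 5.94 CPM (SD, n = 3 each), a log2 fold change of -0.61 (SE 0.18, edgeR adjusted p = 0.141), and the stress transducer Creb3l1 had -1.59 (SE 0.49).

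With hormone load, the translocation and glycosylation list had 6 genes called higher and 0 lower, other folding 3 higher and 0 lower, other degradation 0 higher and 2 lower, transducers 0 and 1, and other ATF4 targets 0 and 6. The lists hold 20, 18, 15, 12 and 24 genes, and over all genes 7.3% were called higher and 11.2% lower, so 1 of 12 transducers and 2 of 15 degradation genes lie near that background. Fkbp11 rose by 1.18 per doubling on the log2 scale (SE 0.32, edgeR adjusted p = 0.0225), while Ppp1r15b fell by 0.91 (SE 0.26, edgeR adjusted p = 0.0276). Other degradation genes summed to 1200 to 1412 CPM in the rich libraries and 1545 to 1751 in the others, without overlap, other ATF4 targets to 649 to 834 and 825 to 1301 CPM, with overlap, and other folding genes to 1338 to 1528 and 1299 to 1513 CPM.

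Among 10688 genes of at least 10 CPM, those whose log2 CPM ordered the 12 libraries most like Hspa5 were Pcgf6 and Saysd1 (Spearman's rho 0.909 each), Fer and Utp14a (0.902 each), and Gbe1, tied with Ofd1 at 0.895. None is a member. Of the members, Ddit3 (0.76), Herpud1 (0.73), Dnajb9 and Derl3 (0.71 each) came closest, and Dnajb11 (-0.62) and Hyou1 (-0.60) were farthest on the negative side. These are descriptions over libraries that share groups, depth and the Malat1 split.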

How the data were processed

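Each of the 12 libraries has a deposited file of raw whole-number counts by gene ID. Per the labels' protocols, total RNA was isolated with TRIzol and sequenced as 150 bp pairs, mapped with hisat2 2.0.0. The submitters' processing notes name featureCounts 1.5.0-p3, DESeq 1.8.3 and GRCm38. The sources used here do not give the strand setting, the annotation release or the treatment of multimapped reads. Symbols matched 55154 of 55421 IDs. Where Ddit3 matched 2 IDs, the one with more exon sequence was used. Coordinates are those of a GENCODE annotation of GRCm38.

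In R 4.3.3, edgeR 4.0.16 quasi-likelihood F tests (filterByExpr, TMM, 1 mean per group over 12 libraries) tested 22630 genes, with Benjamini-Hochberg adjustment over all of them at 0.05. SE was taken as |log2 fold change| / sqrt(F). For hormone load the covariate was the log2 hormone share, with the 7 hormone genes taken out of totals and factors (22747 genes). The common biological coefficient of variation was 0.445, and the median SE of AA14 in control mice, over genes of at least 1 CPM, was 0.26. Of the members, 30 had 1000 or more counts in every library. The labels do not say which libraries are separate mice, so p-values measure the spread between libraries. The steps were tested on simulated data, with changes put into genes of at least 1 CPM. For AA14 in control mice 17.9% of genes with a log2 change of 1 were recovered, and 76.1% at 2. For hormone load 1.49% were recovered at a slope of 1 and 37.3% at 2. These rates describe genes of at least 1 CPM as a whole, and recovery of the members themselves was not tested. A member that did not pass may still differ, by an amount that depends on its own SE. For AA14 in control mice that SE ran from 0.133 for Eif2ak3 to 0.559 for Ppp1r15a. For hormone load it ran from 0.172 for Derl1 to 1.215 for Ppp1r15a.

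Alternatives were RLE factors, totals without hormone genes, DESeq2 1.42.0, limma-voom 3.58.1 with quality weights, other filters, the groups compared only, the replicate number as a block, the Malat1 state (split at the largest gap of log2 Malat1), GC-corrected offsets and each library left out. For hormone load the share of Gh alone, group means as a covariate and leaving out the 2 libraries farthest from the median share were added to these. Fits without the 3 oligodendrocyte-rich libraries, and among only the Malat1-poor or Malat1-rich libraries, were chosen after seeing the data. Members, lists and rules were chosen with earlier results of these data known. By the rule for named genes, Hspa5, Hsp90b1, Xbp1, Atf6, Ern1, Eif2ak3, Atf4 and Ddit3 are given library by library. So are, per branch, the 3 members of smallest p for AA14 in control mice and the 2 for hormone load, and any member past a threshold. Of other pathway genes up to 3 per direction were named, and the 5 genes most like Hspa5, with ties. Not every gene that this rule names is reported here.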

Additional observations from a re-analysis of the deposited data

How the results depend on the processing

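Counts of members past the threshold stayed at 0 under every alternative run for AA14 in cre mice, the difference of AA14 effects and both cre comparisons. For AA14 in control mice the count of 0 became 4 with DESeq2, 10 with limma-voom and 5 with the groups compared only, and was 0 with each library left out. For hormone load the count was 6, among 4220 of 22747 genes called. It became 13 with the share of Gh alone (10 higher, 3 lower, among 5124 genes), 13 with GC-corrected offsets (4321 genes) and 13 with DESeq2 (5733 genes). It was 18 with limma-voom (17 higher, 1 lower, among 7707 genes) and 3 without a low-count filter (3838 of 34993 genes). With group means or the Malat1 state as a term it was 0 (33 and 1499 genes). It was 0 without the 2 farthest libraries, without the 3 oligodendrocyte-rich libraries, and among only the Malat1-poor or only the Malat1-rich libraries, which hold fewer samples. Leaving out 1 library gave 0 (without ctrl_vehicle 3) to 13 (without cre_AA14 3) members, and 1 without cre_vehicle 2. Except where fewer samples explain it by construction, the cause was not tested.

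Same-numbered libraries did not deviate together throughout (r of -0.56 to 0.36, with at least 1 pair of every comparison under 0.1). The main fits used no pairing, and with 3 libraries per group these r cannot exclude a shared batch. With the replicate number as a block, 11 members were called for hormone load, among 4522 of 22747 genes called, and 0 in the other comparisons.

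In control mice Ern1 was positive with RLE factors (0.008), totals without hormone genes (0.013), DESeq2 (0.008), genes of at least 1 CPM (0.027), the Malat1 term (0.085), GC-corrected offsets (0.121) and the oligodendrocyte-rich libraries left out (0.005). Eif2ak3 was positive at 0.003, 0.017, 0.134 and 0.004 with totals without hormone genes, genes of at least 1 CPM, GC offsets and those 3 libraries left out. With 1 library left out Ern1 ran from -0.17 to 0.205, Eif2ak3 from -0.089 to 0.047 and Atf6 from -0.129 to 0.011, each highest without ctrl_vehicle 2, and without ctrl_AA14 3 Ern1 was 0.039 and Eif2ak3 0.002. With the Malat1 term Atf6 was 0.078 and Xbp1 -0.05, and in the difference of AA14 effects Xbp1 was 0.076 and Derl3 0.088. Among only the Malat1-rich libraries the hormone load slopes were -0.038 for Hspa5, -1.035 for Hsp90b1, -0.194 for Dnajc3, -0.537 for Pdia3, -0.589 for Pdia4, -0.281 for Herpud1, -0.886 for Derl3, -0.259 for Xbp1, -2.258 for Atf4 and -1.458 for Ddit3.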
